A study of Mus musculus with 1 sample.

Results

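The 10 genes described here, Piwil2, Piwil4, Mael, Tdrd1, Tdrd9, Ddx4, Mov10l1, Asz1, Gtsf1 and Pld6, encode components of the mouse piRNA pathway. They were chosen by symbol from the 27998 genes listed in the deposited table, 18722 of which had at least 1 unique molecular identifier (UMI, a tag that marks 1 captured transcript), and all 10 had UMIs. Piwi-interacting RNAs (piRNAs) are short RNAs of the germline that guide PIWI proteins to the transcripts of transposable elements. PIWI proteins cut those transcripts in the cytoplasm and, in fetal germ cells, direct DNA methylation of transposon sequences in the nucleus. The precursors are processed in nuage, granules that lie against mitochondria, where tudor domain proteins, RNA helicases and proteins of the outer mitochondrial membrane assemble around the PIWI proteins. In the testis, loss of most of these genes leaves males sterile.

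The levels were measured in 1 single-cell RNA sequencing library from wild-type C57BL/6 mice at postnatal day 8, an age at which the testis holds spermatogonia and somatic cells but no spermatids. Cells carrying the surface protein THY1 were selected with magnetic beads to enrich spermatogonia, and a small number of unselected testis cells was added back, so the shares of cell types given here are those of a prepared mixture. Equal numbers of cells from 3 mice were pooled before loading on a droplet instrument with chemistry version 2, and the pool cannot be divided into mice. The library of Zscan2 knockout mice was not analysed here. With 1 library there were no replicates, so no test was made. All intervals are exact, at the 95% level, and cover counting error only.

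The library held 970 cell barcodes with 2655 to 44915 UMIs each and a median of 9115, and 920 cells passed the filters. No pathway gene was used to cluster or name cells. By markers such as Dazl and Sohlh1, 324 cells (35.2%, 32.1 to 38.4%) were germ cells, and the other 596 were somatic. The germ cells formed 4 clusters. A stem cell-like cluster (SSC-like, for spermatogonial stem cell, with Lhx1 among its leading genes) had 119 cells. A progenitor-like cluster had 68 cells and Neurog3 among its leading genes, although the first of these was Hba-a1, a hemoglobin gene with 3604 of its 3703 germ cell UMIs in a single barcode. The other 2 clusters scored as differentiating, 1 led by Kit with 105 cells and 1 led by Prss50, Ly6k and Esx1 with 32 cells. None of the markers of differentiating cells was among the 10 leading genes of the Prss50-led cluster, but Stra8, a gene induced by retinoic acid, had 406 UMIs there, 1000 per 1000000 UMIs (905 to 1102), against 875 (825 to 928) in Kit-led and 102 (89.9 to 115) in SSC-like cells. Median depth was 21712 UMIs per cell in SSC-like, 19722 in progenitor-like, 8530 in Kit-led, 12208 in Prss50-led and 8193.5 in somatic cells. Somatic cells comprised 255 Sertoli-like, 186 stromal-like, 94 peritubular myoid-like and 35 macrophage-like cells and a cluster of 26 cells led by Xcl1, Gzmc and Klrd1.

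Levels are CPM, the UMIs of a gene summed over a class and scaled to 1000000 UMIs in all. UMIs were counted at the 3′ ends of transcripts and are not divided by length, and a lower level does not tell fewer expressing cells from less RNA per cell. Together the 10 genes had 6471 UMIs in germ cells, or 1165 CPM (1137 to 1194), and 146 in somatic cells, or 27.2 CPM (23.0 to 32.0). Mael alone gave 42.2% of these germ cell UMIs. Within germ cells the sum stood at 1166 CPM (1125 to 1209) in SSC-like, 1284 (1222 to 1348) in progenitor-like, 1155 (1097 to 1215) in Kit-led and 817 (732 to 910) in Prss50-led cells. The interval of the Prss50-led cells lay below the other 3 and that of the progenitor-like cells above them, while those of SSC-like and Kit-led cells overlapped.

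**Figure D1:**
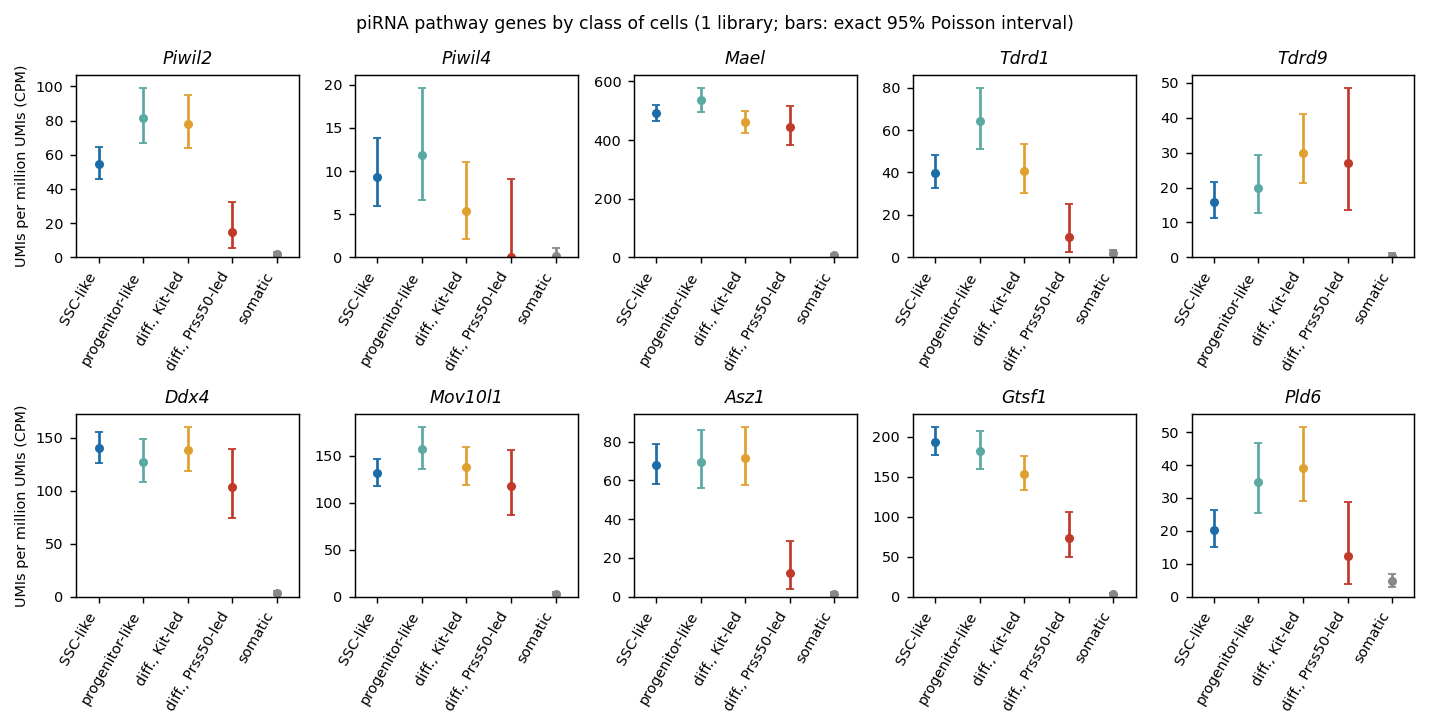
Level of each piRNA pathway gene, in CPM, in 4 clusters of germ cells and in all somatic cells of 1 library, each gene on its own linear axis. Points are the summed level and bars its exact 95% Poisson interval, and in every panel the somatic point (grey) lies below the SSC-like, progenitor-like and Kit-led points.

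The PIWI proteins come first. Piwil2 encodes MILI, the cytoplasmic PIWI protein that loads piRNAs and cuts transposon transcripts, and lies on chromosome 14 of GRCm38 (ENSMUSG00000033644, chr14:70372477-70429383, minus strand). It had 141 UMIs in SSC-like cells (54.6 CPM, 45.9 to 64.4), 103 in progenitor-like (81.6, 66.6 to 99.0), 102 in Kit-led (78.3, 63.8 to 95), 6 in Prss50-led (14.8, 5.42 to 32.2) and 10 in somatic cells (1.87, 0.895 to 3.43). Progenitor-like and Kit-led cells had the highest levels, with overlapping intervals, and Prss50-led cells the lowest of the germ cells. Within the Kit-led cluster the level was 29.6 CPM (12.8 to 58.4) in 54 cells of low depth and 87.4 (68.4 to 110) in 41 of high depth. With each cell thinned to 5000 UMIs, so that depth was equal, Piwil2 was found in 16.1% of SSC-like (9.98 to 24.0%), 49.2% of progenitor-like (36.1 to 62.3%), 31.9% of Kit-led (21.2 to 44.2%) and 6.45% of Prss50-led cells (0.791 to 21.4%), against 1.09% of somatic cells (0.403 to 2.37%). Cells with fewer than 5000 UMIs could not be thinned and were left out, among them 36 of the 105 Kit-led cells. Without thinning and with all cells, the shares in the same order were 61.3%, 72.1%, 44.8%, 15.6% and 1.68%.

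Piwil4 (ENSMUSG00000036912, chr9:14696230-14740733, minus strand) encodes MIWI2, the nuclear PIWI protein that guides DNA methylation of transposons in fetal germ cells. It was the scarcest of the 10 genes in germ cells, with 46 UMIs, and no germ cell held more than 3. SSC-like cells had 24 of these UMIs (9.29 CPM, 5.95 to 13.8), progenitor-like cells 15 (11.9, 6.65 to 19.6), Kit-led cells 7 (5.37, 2.16 to 11.1) and Prss50-led cells 0, where 3 UMIs would be 7.39 CPM. Somatic cells had 1 UMI, in a macrophage-like cell. The intervals of the 4 germ cell clusters overlapped, and at this depth a difference between them was not detectable cluster by cluster.

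Tudor domain proteins bind methylated arginines of PIWI proteins and hold the granules together. Tdrd1 (ENSMUSG00000025081, chr19:56826209-56870012, plus strand), a partner of MILI, had 103 UMIs in SSC-like (39.9 CPM, 32.5 to 48.4), 81 in progenitor-like (64.2, 51.0 to 79.8), 53 in Kit-led (40.7, 30.5 to 53.2), 4 in Prss50-led (9.85, 2.68 to 25.2) and 11 in somatic cells (2.05, 1.02 to 3.67). Its order of levels was thus the same at the ends as that of Piwil2, with progenitor-like cells highest and Prss50-led cells lowest. Tdrd9 (ENSMUSG00000054003, chr12:111971559-112068854, plus strand), which joins a tudor domain to a helicase and works with MIWI2, was ordered differently. It had 41 UMIs in SSC-like (15.9 CPM, 11.4 to 21.5), 25 in progenitor-like (19.8, 12.8 to 29.2), 39 in Kit-led (29.9, 21.3 to 40.9), 11 in Prss50-led (27.1, 13.5 to 48.5) and 2 in somatic cells. The levels of neighbours in this order overlapped.

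Mael, on chromosome 1 (ENSMUSG00000040629, chr1:166201201-166238747, minus strand), encodes maelstrom, a nuage protein needed for transposon silencing. It had the most UMIs of the 10 genes: 1271 in SSC-like (492 CPM, 465 to 520), 676 in progenitor-like (536, 496 to 577), 600 in Kit-led (460, 424 to 499), 181 in Prss50-led (446, 383 to 515) and 41 in somatic cells (7.65, 5.49 to 10.4). Mael was found in 315 of 324 germ cells and, after thinning, in 92.4% of SSC-like, 91.8% of progenitor-like, 88.4% of Kit-led and 80.6% of Prss50-led cells, against 4.56% of somatic cells. The 4 germ cell clusters thus all lay between 446 and 536 CPM.

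Both helicases were also at similar levels in the germ cell clusters. Ddx4 (ENSMUSG00000021758, chr13:112598333-112652475, minus strand) encodes the DEAD-box helicase known as mouse vasa homologue, a common marker of germ cells, and stood at 141 CPM in SSC-like (126 to 156), 128 in progenitor-like (109 to 149), 138 in Kit-led (119 to 160), 103 in Prss50-led (74.5 to 140) and 3.36 in somatic cells (1.99 to 5.31). Mov10l1 (ENSMUSG00000015365, chr15:88982909-89055152, plus strand) encodes the helicase that binds piRNA precursors and starts their processing, and stood at 132 (118 to 147), 157 (136 to 180), 138 (119 to 160), 118 (87.1 to 157) and 2.99 CPM (1.71 to 4.85) in the same order of classes. For each of these helicases the intervals of all 4 germ cell clusters overlapped. The UMI sums behind the germ cell levels were 746 for Ddx4 and 767 for Mov10l1.

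Asz1 (ENSMUSG00000010796, chr6:18050964-18109061, minus strand) encodes GASZ, a scaffold of nuage on the outer mitochondrial membrane. It had 176 UMIs in SSC-like (68.1 CPM, 58.4 to 79.0), 88 in progenitor-like (69.7, 55.9 to 85.9), 93 in Kit-led (71.4, 57.6 to 87.4), 5 in Prss50-led (12.3, 4.0 to 28.7) and 7 in somatic cells (1.31, 0.525 to 2.69). Gtsf1 (ENSMUSG00000022487, chr15:103402405-103430470, minus strand) encodes a small zinc finger protein that helps PIWI proteins to cut their targets. It had 501 UMIs in SSC-like (194 CPM, 177 to 212), 230 in progenitor-like (182, 159 to 207), 200 in Kit-led (153, 133 to 176), 30 in Prss50-led (73.9, 49.8 to 105) and 15 in somatic cells (2.80, 1.57 to 4.62). Both genes were at overlapping levels in SSC-like and progenitor-like cells and had intervals in Prss50-led cells below those of every other germ cell cluster.

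Pld6 (ENSMUSG00000043648, chr11:59783897-59787645, minus strand) encodes MitoPLD, or Zucchini, a protein of the outer mitochondrial membrane that cuts piRNA precursors. It had 52 UMIs in SSC-like (20.1 CPM, 15 to 26.4), 44 in progenitor-like (34.9, 25.3 to 46.8), 51 in Kit-led (39.1, 29.1 to 51.4), 5 in Prss50-led (12.3, 4.0 to 28.7) and 25 in somatic cells (4.67, 3.02 to 6.89). Kit-led and progenitor-like cells had the highest levels, with overlapping intervals. Among the 10 genes, Pld6 had the highest somatic level relative to its germ cell level.

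Germ cells were compared with somatic cells to set the background. A gene was counted as higher or lower past 2-fold where it had at least 50 UMIs in the compared cells together. Of the 10 genes, 9 had that many and all 9 were higher in germ cells, while Piwil4 had 47 and was not counted. Of 11027 genes tested, 24% were higher and 26.7% lower in germ cells. The log2 ratio of germ over somatic CPM ranged from 2.55 for Pld6 (1.94 to 3.22) to 6.00 for Mael (5.56 to 6.49), with 5.95 for Gtsf1, 5.81 for Tdrd9, 5.64 for Asz1, 5.53 for Mov10l1, 5.32 for Ddx4, 5.09 for Piwil2 and 4.4 for Tdrd1. The median of the 9 was 5.53, beside 0.07 over all genes tested, whose 95th percentile was 2.85. Germ cells were named by other germ cell genes, not by these 10.

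Free RNA in droplets can give a low level of germ cell transcripts in somatic cells, so the somatic levels were set beside those of 6 germ cell genes outside the pathway. These 6 genes were also the markers that named clusters as germ cells, so their low somatic levels are partly set by that naming. The part of free RNA was not tested. The level in somatic cells was 2.21% of the germ cell level in the median of the 10 pathway genes (1.56 to 17.0%) and 2.27% in the median of Dazl, Zbtb16, Sohlh1, Taf4b, Sall4 and Dnd1 (1.40 to 9.78%). For 9 of the 10 genes the somatic level was between 1.56% and 4.73% of the germ cell level. For Pld6 it was 17.0% (10.7 to 26.1%), and 19 of its 25 somatic UMIs were in Sertoli-like cells, where the level of 8.28 CPM (4.98 to 12.9) was 30.2% of the germ cell level (17.7 to 48.9%). In stromal-like cells Pld6 stood at 1.83 CPM (0.377 to 5.34). The cause of the Pld6 level in Sertoli-like cells was not tested, and Taf4b, the highest of the 6 other germ cell genes there, stood at 13.7% (6.97 to 24.4%).

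**Figure D2:**
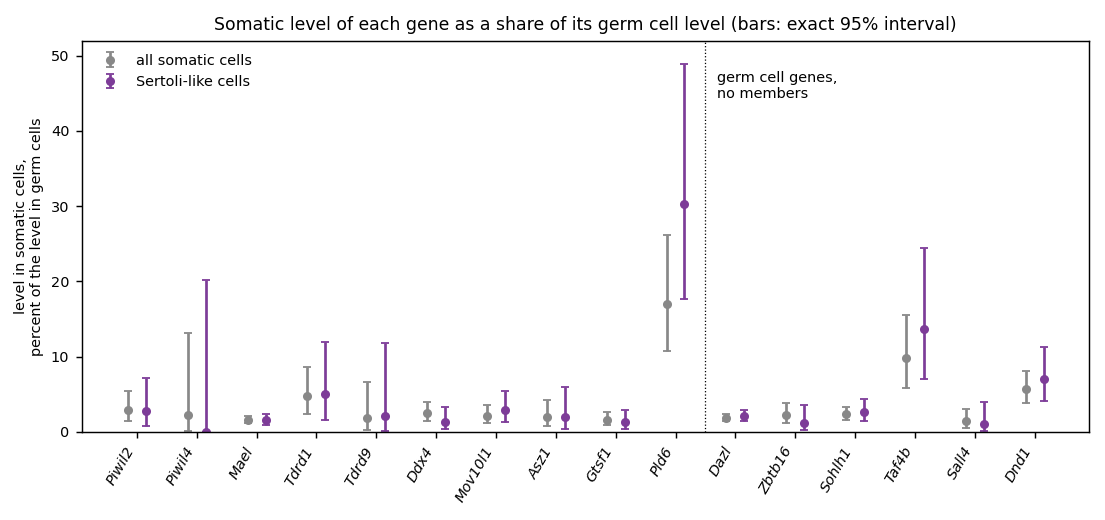
Level of each gene in all somatic cells (grey) and in Sertoli-like cells (purple) as a percentage of its level in germ cells, with exact 95% intervals, for the 10 pathway genes on the left and 6 germ cell genes outside the pathway on the right. Pld6, at 17.0% in all somatic cells and 30.2% in Sertoli-like cells, lies above the other genes.

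The promoters of the pathway genes are shown because the genes share the contrast between germ and somatic cells. RefSeq windows of 300 bases on GRCm38.p6, from 250 bases before the start site to 50 after it, were available for 9 of the 10 genes, all but Piwil2, and 1 window a gene was used, that of the most upstream start. The letters CACGTG, an E-box that reads the same on both strands and is bound by basic helix-loop-helix proteins such as MAX and its partners, were found in 6 of the 9 windows, those of Mael, Tdrd1, Tdrd9, Ddx4, Mov10l1 and Pld6. They were also found in 4 of the 20 windows (20%) found for 28 other pathway genes and in 7.24% of all 27025 gene windows. The letters GGCGGGA on either strand, which E2F proteins such as E2F6 bind, were found in 2 of the 9, Mael and Ddx4, in 3 of the 20 (15%) and in 11.4% of all windows. In no window of the 9 did the motifs overlap each other. The E-box began 11 bases before the RefSeq start site of Tdrd1, 29 before that of Ddx4 and 33 before that of Pld6. Tdrd9 held 2 of them, 165 and 95 bases before its start site. The GENCODE span of Ddx4 begins further upstream, at 112652475, so the E-box of Ddx4 lies inside that span. The E-boxes of Mael and Mov10l1 lay further from the RefSeq start, at 223 and 246 bases. These 4 windows are printed 5′ to 3′ on the strand of the gene, with each CACGTG in capitals, to show the position of the E-box next to the start site in 3 of them and the pair in Tdrd9:
Tdrd1 (chr19:56825959-56826258, plus strand): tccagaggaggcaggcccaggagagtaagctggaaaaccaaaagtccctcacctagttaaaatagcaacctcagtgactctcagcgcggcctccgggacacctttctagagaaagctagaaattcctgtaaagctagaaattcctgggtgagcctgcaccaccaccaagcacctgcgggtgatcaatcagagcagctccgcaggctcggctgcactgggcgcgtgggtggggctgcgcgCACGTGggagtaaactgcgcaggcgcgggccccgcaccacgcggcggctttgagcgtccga
Ddx4 (chr13:112652261-112652560, minus strand): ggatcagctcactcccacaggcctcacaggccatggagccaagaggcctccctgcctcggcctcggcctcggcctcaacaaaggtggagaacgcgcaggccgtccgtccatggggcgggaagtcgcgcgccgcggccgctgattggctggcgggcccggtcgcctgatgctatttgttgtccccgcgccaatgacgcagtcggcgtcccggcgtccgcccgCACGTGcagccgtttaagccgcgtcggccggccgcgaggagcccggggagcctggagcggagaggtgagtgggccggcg
Pld6 (chr11:59787608-59787907, minus strand): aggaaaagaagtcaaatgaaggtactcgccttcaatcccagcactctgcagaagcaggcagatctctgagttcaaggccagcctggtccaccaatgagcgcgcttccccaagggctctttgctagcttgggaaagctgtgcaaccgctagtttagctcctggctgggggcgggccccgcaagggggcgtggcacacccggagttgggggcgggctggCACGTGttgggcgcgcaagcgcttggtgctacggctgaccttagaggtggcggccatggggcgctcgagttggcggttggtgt
Tdrd9 (chr12:111971309-111971608, plus strand): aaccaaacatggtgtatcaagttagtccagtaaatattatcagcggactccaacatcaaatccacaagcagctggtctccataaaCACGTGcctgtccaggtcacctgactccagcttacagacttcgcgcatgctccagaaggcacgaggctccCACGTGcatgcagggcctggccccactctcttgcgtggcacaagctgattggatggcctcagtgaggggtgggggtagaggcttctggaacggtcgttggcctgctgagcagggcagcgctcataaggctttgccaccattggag
A match is a run of letters and no measurement of binding. The 3 genes without a match, Piwil4, Asz1 and Gtsf1, had germ over somatic log2 ratios of 5.47, 5.64 and 5.95, within the range of the genes with one.

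The comparison of undifferentiated cells (SSC-like and progenitor-like together, 187 cells) with differentiating-like cells (137 cells) asks how the genes stand on either side of the onset of differentiation. Within germ cells, genes were counted past 1.5-fold. Of the 9 pathway genes with at least 50 UMIs, 0 were higher in undifferentiated cells and 1 was lower, Tdrd9. Of 8219 genes tested, 14.2% were higher and 17.3% lower. Tdrd9 stood at 17.2 CPM (13.3 to 21.8) in undifferentiated and 29.2 (21.7 to 38.6) once differentiating-like, which is a log2 ratio of -0.77 (-1.32 to -0.21). The differentiating-like cells were not alike in this. Tdrd9 stood at 40.0 CPM (27.6 to 56.2) in 41 Kit-led cells of high depth and 27.1 in Prss50-led cells. It stood at 11.1 (2.29 to 32.5) in 54 Kit-led cells of low depth and 14.3 (2.96 to 41.9) in the other 10, with 3 UMIs in each group. Gtsf1, at 190 against 135 CPM, had a log2 ratio of 0.50 (0.28 to 0.72), Tdrd1, at 47.8 against 33.3 CPM, of 0.52 (0.09 to 0.98), and Mael, at 506 against 457 CPM, of 0.15 (0.03 to 0.27), all below the fold but with intervals above 0. Piwil4 had 39 UMIs against 7 and a log2 ratio of 1.31 (0.13 to 2.71), and did not reach 50 UMIs. For Piwil2, Ddx4, Mov10l1, Asz1 and Pld6 the interval included 0. The narrowest of these, for Mov10l1, ran from -0.15 to 0.30. Over 18 alternative settings the log2 ratio of Piwil2 ranged from -0.091 to 2.36, that of Asz1 from 0.058 to 2.14, that of Pld6 from -0.72 to 0.96 and that of Tdrd1 from 0.26 to 2.19. The upper end of each came from keeping cells with at least 200 genes, where 6 genes were past 1.5-fold in place of 1. With that limit 210 cells were named germ cells in place of 324, though only 10 barcodes held fewer than 500 genes. In the reported setting the median log2 ratio of the 9 genes was 0.07, beside -0.10 over all genes tested.

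SSC-like cells were compared with progenitor-like cells to place the genes within the undifferentiated pool. Of the 9 genes, 0 were higher and 2 were lower in SSC-like cells past 1.5-fold, Pld6 and Tdrd1. Of 6987 genes tested, 12.7% were higher and 6.67% lower. On the log2 scale, SSC-like over progenitor-like CPM stood at -0.79 (-1.40 to -0.18) for Pld6, -0.69 (-1.12 to -0.25) for Tdrd1 and -0.58 (-0.96 to -0.20) for Piwil2, which fell just short of the fold. For the other 7 genes the interval included 0, and the ratios ranged from -0.35 for Piwil4 to 0.14 for Ddx4. The median of the 9 counted genes was -0.25, beside 0.08 over all genes tested. In all 16 alternative settings that gave both clusters, Piwil2, Tdrd1 and Pld6 were lower in SSC-like cells, by log2 ratios of -0.16 to -1.54 for Piwil2, -0.24 to -0.87 for Tdrd1 and -0.57 to -1.06 for Pld6. In 5 of these settings only 1 gene was past the fold, and without the hemoglobin-rich barcode 3 were past it.

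**Figure D3:**
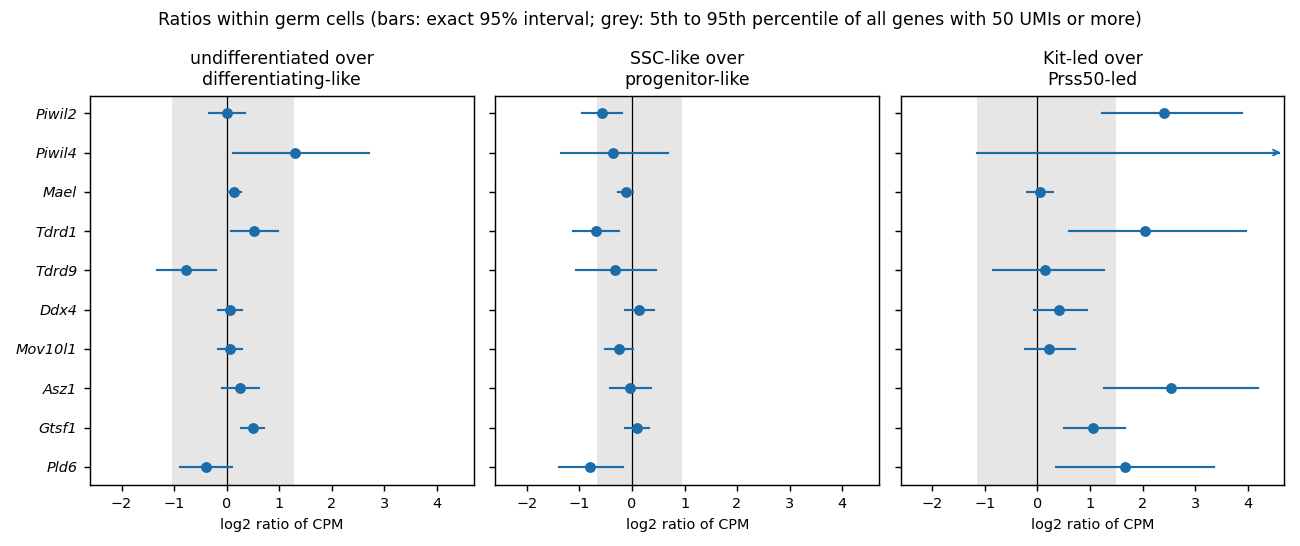
Log2 ratio of CPM for each pathway gene in 3 comparisons within germ cells, with exact 95% intervals. Grey bands run from the 5th to the 95th percentile of all genes with at least 50 UMIs in the compared cells. The whole interval lies left of 0 for Tdrd9 in the first panel and for Pld6, Tdrd1 and Piwil2 in the second. The points of Asz1, Piwil2, Tdrd1 and Pld6 lie right of the band in the third. There Piwil4, with 0 UMIs in Prss50-led cells, has no point and an interval without an upper end.

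The 2 clusters of differentiating-like cells were compared after they had been seen, and their order in time is not given by these data. Prss50 had 114 UMIs in the 32 Prss50-led cells (281 CPM, 232 to 337) and 6 in the 105 Kit-led cells (4.6, 1.69 to 10.0). Kit, the receptor that marks differentiating spermatogonia, stood at 39.4 (22.5 to 64.0) and 98.2 CPM (81.9 to 117). Of the 9 pathway genes with at least 50 UMIs, 5 were higher and 0 were lower in Kit-led cells past 1.5-fold. Of 4602 genes tested, 20.3% were higher and 18.8% lower. The log2 ratio of Kit-led over Prss50-led CPM was 2.54 for Asz1 (1.26 to 4.19), 2.41 for Piwil2 (1.23 to 3.88), 2.05 for Tdrd1 (0.61 to 3.97), 1.67 for Pld6 (0.35 to 3.35) and 1.05 for Gtsf1 (0.50 to 1.66). Only 4 to 6 UMIs of Asz1, Piwil2, Tdrd1 and Pld6 were found in Prss50-led cells, so the size of these ratios is loosely held. Mael, with 0.05 (-0.20 to 0.29), Tdrd9, with 0.14 (-0.85 to 1.26), Mov10l1, with 0.22 (-0.24 to 0.72), and Ddx4, with 0.42 (-0.07 to 0.94), had intervals that included 0. The median of the 9 was 1.05, beside 0.02 over all genes tested. Among the 6 germ cell genes outside the pathway, 4 were also higher in Kit-led cells. These were Zbtb16 (52.2 against 9.85 CPM), Sall4 (66.0 against 4.92), Dnd1 (103 against 34.5) and Sohlh1 (322 against 116). Dazl, at 946 against 1137 CPM, was lower in Kit-led cells, with a log2 ratio of -0.27 (-0.42 to -0.11). Taf4b stood at 43.0 against 56.6 CPM, with an interval that included 0. The lower levels in the Prss50-led cells were thus shared by 4 of these 6 genes.

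The Kit-led cluster was mixed. When all cells were clustered together, 54 of its 105 cells fell in a shallow cluster, with a median of 4037.5 UMIs per cell, 41 in a deep cluster with a median of 19661, and 10 in the cluster of undifferentiated cells. Piwil2 stood at 29.6 CPM (12.8 to 58.4) in the shallow cells and 87.4 (68.4 to 110) in the deep ones, against 14.8 in Prss50-led cells, and Mov10l1 at 62.9 (36.7 to 101) and 164 (137 to 194) against 118. Asz1 ran the other way, at 111 (74.9 to 159) and 53.4 (38.8 to 71.7) against 12.3, as did Gtsf1, at 226 (173 to 290) and 120 (97.6 to 146) against 73.9, and Mael, at 578 (490 to 676) and 393 (351 to 438) against 446. Tdrd1 stood at 25.9 and 40.0 against 9.85, Pld6 at 29.6 and 38.8 against 12.3, and Tdrd9 at 11.1 and 40.0 against 27.1. Ddx4 stood at 92.5 (59.9 to 137) and 137 (113 to 165) against 103, and at 201 (145 to 272) in the other 10 Kit-led cells. Prss50-led cells thus had the lowest of the 3 levels for Piwil2, Tdrd1, Asz1, Gtsf1 and Pld6, with an interval below both others for Asz1 alone. The shallow and the deep cells differed in depth as well as in these levels, which moved in both directions, and the part of depth was not tested.

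**Figure D4:**
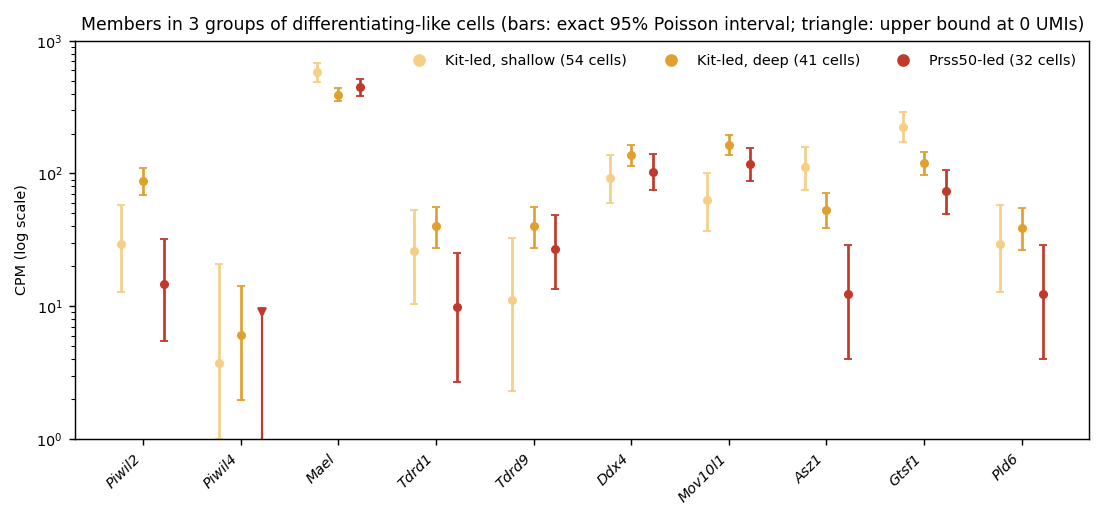
Level of each pathway gene, in CPM on a log axis, in the shallow and deep cells of the Kit-led cluster and in Prss50-led cells, with exact 95% Poisson intervals cut at the lower axis limit. A triangle marks the upper bound for Piwil4, which had 0 UMIs in Prss50-led cells. Asz1 and Gtsf1 are highest in the shallow cells and lowest in the Prss50-led cells.

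This comparison depended on where the line between the clusters fell. In 3 of 21 alternatives the Prss50-led cluster held 77 to 99 cells, all 32 reported ones among them, with a median of 16056 to 17411 UMIs, and the Kit-led cells had a median of 4037.5 to 4222. There the log2 ratios of Piwil2 were -0.53 to -1.15, of Tdrd1 -0.054 to -0.21 and of Pld6 -0.61 to -1.67. Asz1 kept log2 ratios of 1.30 to 3.31 and Gtsf1 of 0.70 to 1.61 in all 21 alternatives. With each cell thinned to 5000 UMIs, 1 gene was past the fold with at least 50 UMIs. Thinning lowers the counts and leaves cells out, so fewer genes can reach that minimum, and a gene below it was not counted.

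The number of pathway genes found per cell was compared at equal depth, with each cell thinned to 5000 UMIs and shallower cells left out (1 SSC-like, 7 progenitor-like, 36 Kit-led, 1 Prss50-led and 48 somatic cells). The median was 3 of the 10 genes in 118 SSC-like, 4 in 61 progenitor-like, 3 in 69 Kit-led and 2 in 31 Prss50-led cells, and 0 in 548 somatic cells. No somatic cell held more than 2, and 470 of the 548 (85.8%) held none. A germ cell without any of the 10 was rare, with 1 of 69 among Kit-led and 2 of 31 among Prss50-led cells and 0 of the 118 SSC-like and 61 progenitor-like cells. Without thinning the medians were 7, 7, 5, 4 and 0.

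**Figure D5:**
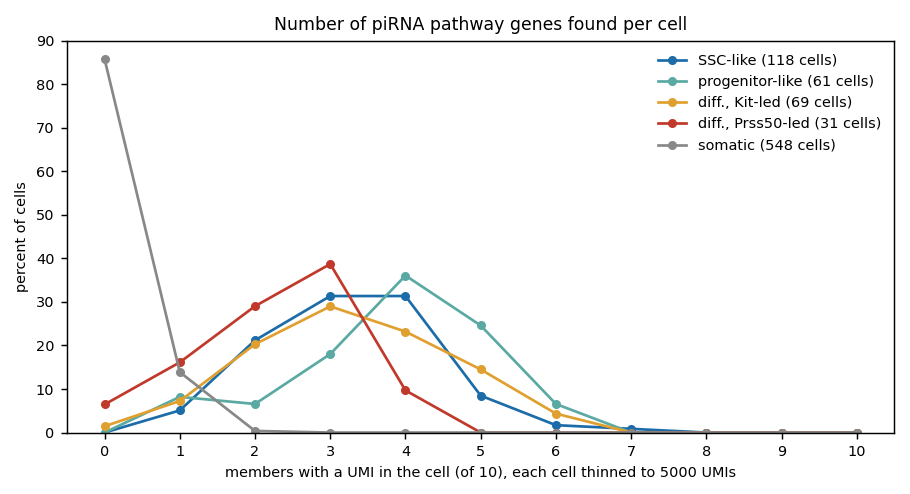
Percentage of the cells of each class (y axis) with a given number of the 10 pathway genes found (x axis) after each cell was thinned to 5000 UMIs. The somatic curve has 85.8% of cells at 0 genes, while the medians of the germ cell clusters are 2 to 4 genes.

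A further 28 genes of the pathway and of the complexes it works with were counted in the same way. Of 24 with at least 50 UMIs in germ and somatic cells together, 18 were higher in germ cells past 2-fold and 0 were lower, beside the 24% higher and 26.7% lower over all genes tested. Mybl1, with 8 UMIs in germ and 40 in somatic cells, did not reach 50 and was not counted. It was lower in germ cells, with a log2 ratio of -2.37 (-3.68 to -1.26). Fkbp6, a cochaperone of PIWI loading, had the most germ cell UMIs, with 422 CPM (406 to 440), followed by Tex19.1 with 237 (224 to 250), Tex15 with 166 (155 to 177) and Stk31 with 142 (132 to 152). Piwil1, which encodes the PIWI protein of later meiotic and postmeiotic cells, had 55 UMIs in germ cells (9.90 CPM) and 0 in somatic cells. Setting its somatic count to 3 UMIs gave a ratio of 17.7-fold, which is not a lower bound. The interval of its log2 ratio began below that value and had no upper end. The 6 genes within 2-fold were the methyltransferase gene Prmt5 and the RNA metabolism genes Snd1, Mov10, Ddx6, Dcp1a and Xrn1. Fkbp6 also had 69.3 CPM (58.9 to 80.9) in Sertoli-like cells, with a UMI in 40.8% of them at a median depth of 8343, and 12.8 CPM (7.92 to 19.6) in stromal-like cells, with a UMI in 10.8% at a median depth of 8370.5. Mov10 stood higher in Sertoli-like cells, at 55.3 CPM (46.1 to 65.8), than in germ cells, at 32.4 (27.8 to 37.5). Mybl1, a transcription factor that drives pachytene piRNA genes in meiosis, had 8 UMIs in germ cells (1.44 CPM) and 34 in Sertoli-like cells (14.8 CPM, 10.3 to 20.7). Of the latter, 20 were in a cluster of 45 cells that had Mybl1 among its leading genes (42.6 CPM, 26.0 to 65.9). The Sertoli-like clusters of 132 and 78 cells stood at 3.52 and 14.5 CPM.

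Between undifferentiated and differentiating-like cells, 5 of 24 counted genes of this longer list were higher and 1 was lower past 1.5-fold in undifferentiated cells, beside 14.2% and 17.3% over all genes tested. Nanos2, an RNA-binding regulator of stem cells, had 60 UMIs in undifferentiated and 0 in differentiating-like cells. With the latter set to 3 UMIs the ratio was 8.89-fold, and the interval of the log2 ratio began at 2.81 and had no upper end. Tdrd5, a tudor domain gene, stood at 37.7 against 15.2 CPM (log2 ratio 1.31, 0.70 to 1.97), Morc1, needed for transposon methylation, at 26.0 against 12.9 (1.01, 0.34 to 1.75), and Pnldc1, the exonuclease that trims piRNAs, at 26.8 against 14 (0.93, 0.28 to 1.64). Exd1 passed the fold with an interval that included 0 (0.83, -0.10 to 1.88). Rnf17, a tudor domain gene, stood at 42.1 against 81.3 CPM (-0.95, -1.28 to -0.61), the same direction as Tdrd9. Between SSC-like and progenitor-like cells, 0 of 20 were higher and 2 were lower in SSC-like cells, beside 12.7% and 6.67% over all genes tested. The 2 lower genes were Henmt1, the methyltransferase of piRNA 3′ ends (-0.96, -1.62 to -0.30), and Prmt5 (-0.93, -1.35 to -0.50). Between Kit-led and Prss50-led cells, 3 of 11 were higher in Kit-led cells, Mov10, Tex19.1 and Xrn1, the last with an interval that included 0, and 1 was lower, Tex15, at 170 against 313 CPM (-0.88, -1.20 to -0.56), beside 20.3% and 18.8% over all genes tested.

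The pattern of each gene over the 4 germ cell clusters and the 7 somatic clusters was compared with those of 6064 genes, each with at least 100 UMIs in germ cells, as Pearson's r of log2(CPM + 1) over these 11 clusters. All clusters come from 1 library and germ and somatic clusters set most of the variation, so r is high for many germ cell genes. Among the 10 genes, Ddx4 and Gtsf1 were each the closest to the other (r = 0.99). The closest to Mael was Tiparp (r = 0.99), to Tdrd9 the gene Gm10439 (r = 0.997), to Mov10l1 Pbdc1 (r = 0.98), to Asz1 Pop5 (r = 0.98), to Piwil2 Esrp1 (r = 0.98), to Tdrd1 Mybbp1a (r = 0.97) and to Pld6 Wrap73 (r = 0.96). Piwil4 had too few UMIs for this comparison.

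In the GENCODE vM21 annotation all 10 genes are protein coding. Piwil2 shares its strand with the genes Gm22725 and Gm24890, which overlap its span, and Mov10l1 with Gm23737. Whole spans were compared, and whether these genes overlap exons of the host gene was not tested. Where they do, their reads could not be told from those of the host gene by position alone. Genes on the opposite strand overlap Piwil4 (Gm10706 and Gm15586) and Tdrd9 (Rd3l).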

How the data were processed

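Values are UMI counts per gene and cell barcode from 1 wild-type library. The authors made them with Cell Ranger 2.1.0 on the mm10 genome (GRCm38) and deposited the counts without normalization. The 3 pooled mice cannot be told apart, and mm10 is the assembly of the GENCODE vM21 annotation used for positions.

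Of 970 barcodes, 10 with fewer than 500 genes, 36 with 10% or more of mitochondrial UMIs and 4 that scrublet (scanpy 1.11.5, expected rate 0.01) called doublets were left out. Clusters were made in Seurat 5.3.0 (R 4.3.3) with 14 principal components at a resolution of 0.5, once for all cells and again for germ cells, leaving all pathway genes out. A cluster was named by the marker list with the highest mean log-normalized expression against the other cells. It stayed unnamed where fewer than 3 of those markers were found in at least 10% of its cells. The same held where another list had more of its 10 leading genes, or where its depth was low and none of these genes was a marker. Class names are rebuilt, since no deposited annotation was used here. Members are described whatever their values, and other genes are named from lists, where they passed a fold or had the most UMIs. Genes of most similar pattern are the closest by Pearson's r. The members, the lists and the comparisons were chosen with earlier results of these data known.

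CPM intervals are exact Poisson, shares exact binomial (Clopper-Pearson) and ratios exact conditional binomial, at 95% and for counting error only (SciPy 1.17.1). A gene at 0 was set to 3 UMIs for a ratio. Simulated cells, 920 with 27998 genes, were drawn with Poisson error from the summed profile of each cluster, with 200 genes changed. Of 324 simulated germ cells, 79.0% received the right class. For undifferentiated over differentiating cells 95% of intervals held the true ratio with the true classes and 85.5% with the rebuilt ones. The 95% follows from the Poisson draw. Differences between cells of the same cluster beyond depth and counting error were not simulated. A total of 20 alternatives were listed at the start and 7 were added after seeing the data. The comparison of Kit-led with Prss50-led cells was itself not planned and was also added after seeing the data.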

Additional observations from a re-analysis of the deposited data

Results flagged for a closer look

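The 50 barcodes left out by the filters on genes, mitochondrial UMIs and doublets enter no comparison, and they held UMIs of the pathway genes above the somatic level. The 10 genes together had 220 UMIs there, which is 495 CPM (432 to 565, exact 95% Poisson interval), against 27.2 CPM (23.0 to 32.0) in somatic cells and 1165 CPM (1137 to 1194) in the germ cells kept. The left-out barcodes were not named by cell type. Their cause was not tested.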

How the results depend on the processing

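With 1 library, replicate error is unknown, and low counts limit Piwil4 and the 32 Prss50-led cells. No paired analysis was possible because there was 1 library and no test. For each comparison the median log2 ratio over all 10 genes was recomputed. It ranged from 4.99 to 5.57 for germ over somatic cells in 20 alternatives and from -0.45 to -0.07 for SSC-like over progenitor-like cells in 16. The classes compared within germ cells were not all formed with a mitochondrial limit of 5% or a resolution of 0.3, nor the progenitor-like class with 10 principal components or a resolution of 0.8, nor 2 differentiating-like clusters with at least 200 genes, so those ratios have no value there. Of the recomputed CPM values of single genes, 996 stayed within the interval of the reported level and 164 did not.

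Germ cells kept were 324, but 210 with at least 200 genes and 67 with a mitochondrial limit of 5%. The highest number in the 20 alternatives was 429. With that limit 4 genes were counted past 2-fold between germ and somatic cells, among those with at least 50 UMIs. The germ over somatic log2 ratio of every gene was at least 2.14 in all 20 alternatives, the lowest being that of Pld6. For undifferentiated over differentiating cells the median of 0.11 became 0.64 with at least 200 genes, and Piwil4 became -0.25 when cells were thinned. There 1 gene was past the fold as reported, against 2 with 10 principal components, the count split, no mitochondrial limit, pathway genes in the clustering, a resolution of 0.8 or 1.2, only cells with at least 5000 UMIs, and a minimum of 20 or 1 UMIs, 3 without mitochondrial and ribosomal protein genes in the denominator and 6 with at least 200 genes. For SSC-like over progenitor-like cells 2 became 1 with at least 1000 or 200 genes, the count split, pathway genes in the clustering and a resolution of 1.2.

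For Kit-led over Prss50-led cells the median over all 10 genes was 0.74, against 1.05 for the 9 counted genes. Piwil4 entered it at -0.46 only because its 0 UMIs in Prss50-led cells were set to 3, against 7 in Kit-led cells. The median of 0.74 became -0.60 with 2000 variable genes by vst, -0.35 in the count split and -0.56 with germ cells chosen by a UMI of Dazl, Sohlh1 or Taf4b. In that order Piwil2 became -1.15, -0.53 and -1.03, Tdrd1 -0.054, -0.21 and -0.10, and Pld6 -0.61, -1.67 and -0.72. Piwil2 was also at -0.018 with Prss50-led cells taken from the clustering of all cells. The 5 genes past the fold became 3 in the count split, 1 with thinned cells and 2 with either the shallow or the deep Kit-led cells alone. These counts take either direction and only genes with at least 50 UMIs, which fewer genes can reach where cells are thinned or left out. With the shallow cells Mov10l1 was counted as lower, at 62.9 CPM against 118 in Prss50-led cells. Asz1, at 111 CPM in the shallow and 53.4 in the deep cells against 12.3, had fewer than 50 UMIs and was not counted. In the 3 settings with a negative median the Prss50-led cluster held 77 to 99 cells in place of 32. The cause of the changes was not tested.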
